A study of Mus musculus with 14 samples.

Results

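The interferon response is followed here through 37 interferon-induced genes in blood-forming cells sorted from the bone marrow of mice that had all been injected with poly(I)poly(C), a synthetic double-stranded RNA. The genes were taken from a list of known interferon targets by their symbols, and each was read from the probe set with the highest mean signal over the 14 arrays. A probe set annotated to that gene alone was found for 34 of the 37, out of 12394 genes represented in this way. Of these, 33 passed the filter on low signals and were tested. Mx2 did not pass it, Isg15 was not used because its probe set is annotated to a further gene, and Ifi44 and Xaf1 were not analysed here.

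The arrays measured RNA of long-term haematopoietic stem cells (LT-HSCs, sorted as Lineage- c-Kit+ Sca-1+ CD34-), multipotent progenitors (MPPs, Lineage- c-Kit+ Sca-1+ CD34+) and myeloid progenitors (Lineage- c-Kit+ Sca-1-). Mice were homozygous for a floxed Dnmt1 allele, the gene of the maintenance DNA methyltransferase, on a C57BL/6 background and were 8 to 12 weeks old. Knockouts also carried the Mx-Cre transgene, in which the interferon-inducible Mx1 promoter drives the Cre recombinase, and controls had no Cre. Knockouts and controls alike were injected 7 times with 25 ug of poly(I)poly(C) per kg, on every other day. Their bone marrow was collected 4 days later. A sample is a pool from 4 to 6 mice that share the genotype, with 2 samples per genotype for LT-HSCs, 2 for MPPs and 3 for myeloid progenitors. Per the labels, control and knockout samples of the same number came from littermates, which gives 7 littermate pairs. No sample from uninjected mice was analysed, so the size of any induction by the injections could not be measured. Sca-1, one of the sort markers, is itself encoded by an interferon-induced gene, Ly6a, which was not analysed here.

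Double-stranded RNA is sensed in the cytoplasm by Ifih1 (MDA5) and in endosomes by Tlr3, and these start the production of type I interferon. Interferon binds the receptor formed by Ifnar1 and Ifnar2, whose kinases Jak1 and Tyk2 pass the signal to transcription factors. Among them, Stat2 and Irf9 act at interferon-stimulated response elements (ISREs) in target promoters. Gamma-activated sites (GAS) are a second kind of element in interferon-responsive promoters. In marrow, type I interferon is known to draw dormant stem cells into the cell cycle.

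The promoters show the letters that this pathway reads, so a few of them are printed here. RefSeq (build GRCm38.p6) had a promoter entry for 28 of the 33 tested members. Within the 250 bases before the transcription start, the ISRE core GAAANNGAAA, or TTTCNNTTTC as the same core on the other strand, was present in 12 of the 28 members, or 42.9%. It was present in 3.35% of the 9888 genes of the array with an entry. The GAS core TTCNNNGAA, which reads the same on both strands, was present in 7 of the 28 members, or 25.0%, and in 7.31% of the 9888 genes. 3 members held both cores and 12 held neither, among them Irf7, Oasl2 and Ifitm3, which says only that these letters are not in this window. Each stretch below holds 80 bases that end at or before the transcription start, is written 5′ to 3′ on the gene's strand and has the matching core in capitals. Ifit1, Ifit3, Oas1a, Irgm1 and Gbp3 are shown because they carry a pair of ISRE cores, and Irf1 because it has a GAS core and no ISRE core.
Ifit1 (chr19:34640765-34640844, plus strand): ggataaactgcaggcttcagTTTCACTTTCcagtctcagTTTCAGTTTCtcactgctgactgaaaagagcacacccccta
Ifit3 (chr19:34583353-34583432, plus strand): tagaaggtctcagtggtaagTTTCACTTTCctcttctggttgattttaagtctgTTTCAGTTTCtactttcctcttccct
Oas1a (chr5:120907526-120907605, minus strand): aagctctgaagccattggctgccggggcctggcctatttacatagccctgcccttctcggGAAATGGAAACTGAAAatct
Irgm1 (chr11:48871421-48871500, minus strand): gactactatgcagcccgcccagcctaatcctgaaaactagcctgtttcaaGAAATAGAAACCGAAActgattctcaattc
Gbp3 (chr3:142559964-142560043, plus strand): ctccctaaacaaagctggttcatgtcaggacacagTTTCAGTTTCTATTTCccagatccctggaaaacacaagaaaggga
Irf1 (chr11:53769904-53769983, plus strand): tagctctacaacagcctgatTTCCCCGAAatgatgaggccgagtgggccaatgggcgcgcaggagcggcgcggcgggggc
The paired cores of Oas1a, Irgm1 and Gbp3 overlapped and those of Ifit1 and Ifit3 lay apart. On the genes' own strands the cores of Ifit1, Ifit3 and Gbp3 read TTTCNNTTTC and those of Oas1a and Irgm1 GAAANNGAAA. A match is a run of letters and no evidence of binding.

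Values are signal intensities as deposited, in arbitrary units that compare arrays for one probe set and not one gene with another. Differences are on the scale log2(intensity + 16) after quantile normalization, with their standard error (SE), and are called when the limma p-value adjusted over all 8612 tested genes is under 0.05. An added 16 shrinks the differences of dim genes. The median intensity of an array over its probe sets lay between 41.1 and 49.1. Dnmt1 itself checked the labels: its intensity was 2219 and 1818 in control and 1169.7 and 1305 in knockout LT-HSCs, and 1518 and 1596 in control and 1141 and 745 in knockout MPPs. Dnmt1 in myeloid progenitors was 1328, 2156 and 1571 in controls and 1055, 1084 and 1193 in knockouts. It was lower in the knockout of all 7 pairs, with an average of -0.63 ± 0.14 (limma, adjusted p = 0.189) and, with the littermate pairs as blocks, -0.63 ± 0.11 (adjusted p = 0.0356). Arrays of the labelled LT-HSCs did not stand out by the summed intensity of LT-HSC markers (Procr, Hlf and Meis1 among them), which was 222 to 820 on them and 523 to 2012 on the MPP arrays. The LT-HSC arrays carried the highest summed intensity of B cell markers (Cd79a, Cd79b and others), at 6146 to 13094 against 144 to 2532 on the other 10 arrays. The sort markers Kit and Cd34 summed to 198 to 585 on the LT-HSC arrays, which were sorted to lack CD34, and to 605 to 1904 on the others. The 7 markers of myeloid progenitors summed to 13807 to 28076 on the arrays of that label and to 1552 to 12213 on the rest. Mpo, Elane, Prtn3 and Ctsg made up most of this sum, with Ctsg at 15001 on myeloid progenitor control array 1. Gata1, Car1 and Klf1 did not separate the myeloid progenitor arrays from the LT-HSC arrays. They were 139 to 605, 700 to 2449 and 179 to 653 on the LT-HSC arrays. On the myeloid progenitor arrays they were 147 to 369, 993 to 1528 and 172 to 360. How much B cells contributed to any value of the LT-HSC arrays was not tested.

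The interferon-induced genes differed most between littermate pairs of the same population. In LT-HSCs they were higher in pair 2 than in pair 1, in MPPs higher in pair 2 than in pair 1, and in myeloid progenitors higher in pair 3 than in pairs 1 and 2, in both genotypes. The median intensity of the 33 members was 99.7 and 324 on control and 80.3 and 262 on knockout LT-HSC arrays 1 and 2. On the MPP arrays it was 99.6 and 324 in controls and 123 and 281 in knockouts. On myeloid progenitor arrays 1, 2 and 3 it was 77.8, 88.5 and 311 in controls and 80.8, 112 and 247 in knockouts. So 3 pairs, 1 in each population, had a member median of at least 247 on both arrays, and the other 4 pairs one of at most 123. This pattern was noticed in the values and then tested, so the tests below describe it and are no independent evidence.

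An F test over the differences between littermate pairs within the populations, with the knockout effect of each population in the fit, called 30 of the 33 members. It called 20.2% of all genes tested. The members it did not call were Stat2 (adjusted p = 0.236), Gbp2 (adjusted p = 0.147) and Tap1 (adjusted p = 0.144). A filter that keeps a gene with enough signal on 2 arrays can admit genes through the pairs where they are high: 4 of the 34 members with a probe set passed it only with arrays of these 3 pairs, and 29 passed on the other 8 arrays alone. The 4 are Ifit3, Mx1, Oasl2 and Zbp1, so that a call of theirs between these pairs is no support for the pattern. Among the 29, the F test called 26. With no filter, 29 of 34 members were called beside 11.8% of all genes, and without the LT-HSC arrays 25 of 33 beside 11.4%. In bulk RNA, fewer cells of a type and less RNA per cell cannot be told apart. Because each pair pooled littermates, the litter and whatever else its control and knockout arrays shared in handling cannot be told apart. The labels name no sort day and no array batch.

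**Figure D1:**
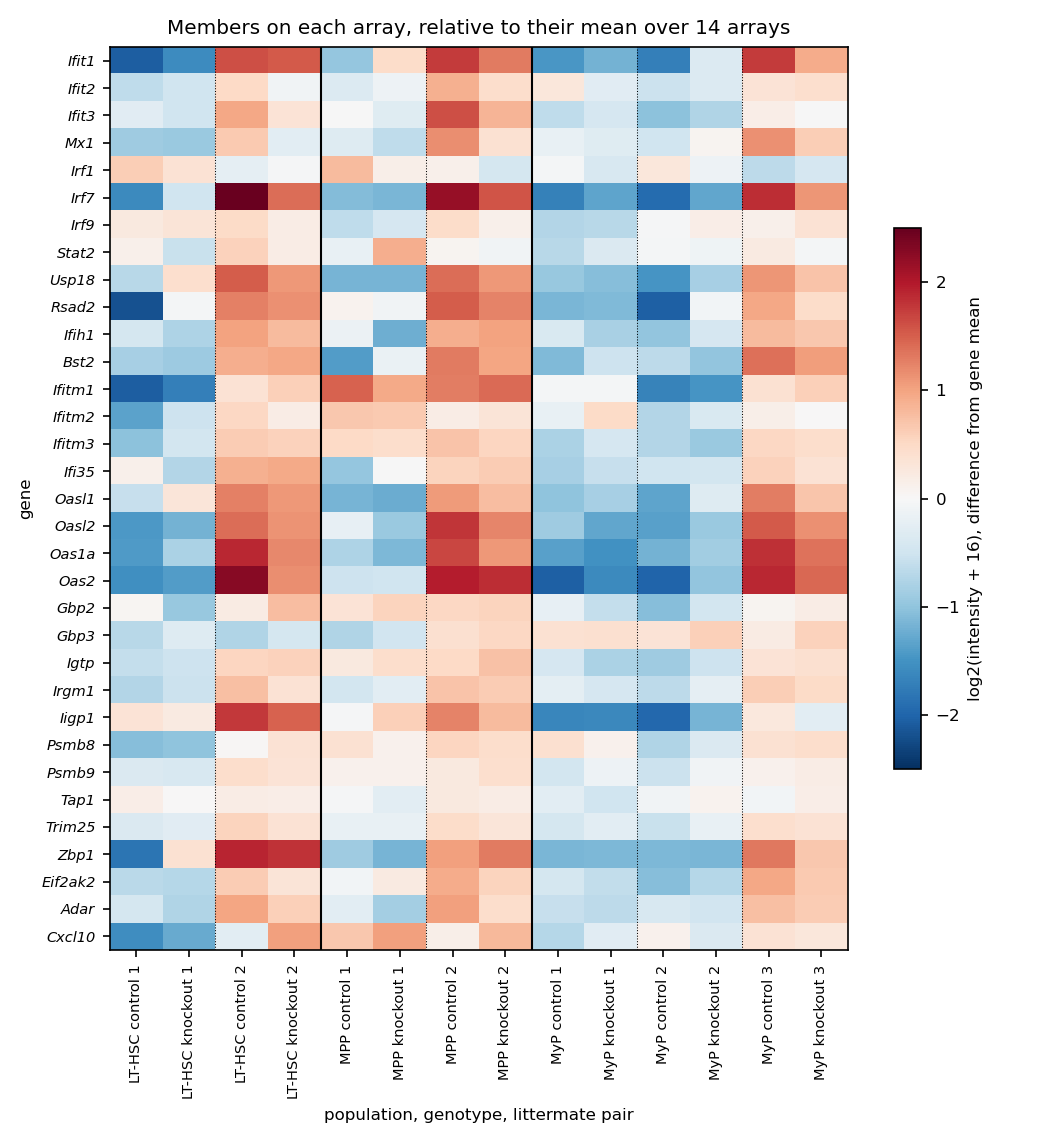
Log2(intensity + 16) of the 33 tested members (rows) on the 14 arrays (columns, control and knockout of a littermate pair side by side), each row relative to its mean over the arrays, with red for higher and blue for lower and the colour scale ending at 2.5 on either side. Both columns of LT-HSC pair 2, MPP pair 2 and myeloid progenitor pair 3 are red for most genes, while Irf1 runs the other way and Gbp3 is lower in both LT-HSC pairs than in the myeloid progenitor pairs.

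Taken one contrast at a time, 26 of 33 members were called higher in LT-HSC pair 2 than in pair 1 and 0 lower, with a median difference of 1.28, where 12.6% of all genes were called higher. In MPP pair 2 against pair 1, 15 were called higher and 0 lower, with a median of 1.04 and 2.98% of all genes higher. Myeloid progenitor pair 3 had 16 members called higher than in pair 2 (median 1.10, 1.14% of all genes) and 6 higher than in pair 1 (median 1.09, 0.128% of all genes), with 0 lower in either. Over the 29 members that passed the filter on the other 8 arrays the counts were 22 in LT-HSCs, 11 in MPPs (median 0.82), and 14 and 5 for myeloid progenitor pair 3 against pairs 2 and 1. Myeloid progenitor pairs 1 and 2 did not show such a shift: the median was -0.0022, no member was called higher (0.221% of all genes) and Ifitm1 alone was called lower, at -1.53 ± 0.18 in pair 2 against pair 1 (0.174% of all genes lower). These counts rest on 2 arrays per pair, with p-values that measure the spread within pairs and not between litters, and leaving out 1 array moved most of them. The LT-HSC count stayed between 19 and 26. The MPP count was 0 without MPP control array 1 or 2, 1 without MPP knockout array 1 or 2 and 9 without myeloid progenitor knockout array 3. The count for myeloid progenitor pair 3 against pair 2 was 0 without control array 2 or 3, 3 without knockout array 3 and 8 without any 1 of the 4 MPP arrays. Against pair 1 it was 0 without control array 1 or 3 or knockout array 1, 2 without knockout array 3, and 3 without control array 2, knockout array 2 or any 1 MPP array. The medians kept their sign under each of these and the other alternatives tried, at 0.97 to 1.45 in LT-HSCs, 0.63 to 1.17 in MPPs, and 0.84 to 1.22 and 0.85 to 1.32 for myeloid progenitor pair 3 against pairs 1 and 2. The F test called 21 to 30 members when 1 array was left out.

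Among the transcription factors, 3 of 4 were called by the F test, and the differences of Irf7 and Irf1 had opposite signs. Irf7 (Entrez Gene 54123), the factor that amplifies interferon production and is itself interferon-induced, had an intensity of 18.1 and 582 on control and 52.3 and 262 on knockout LT-HSC arrays 1 and 2. On the MPP arrays it was 35.5 and 453 in controls and 32.6 and 286 in knockouts, and on the myeloid progenitor arrays 12.9, 12.3 and 373 in controls and 22.5, 25.7 and 209 in knockouts. Both arrays of LT-HSC pair 2, MPP pair 2 and myeloid progenitor pair 3 were above all arrays of the other pairs. The difference was 2.98 ± 0.47 in LT-HSC pair 2 against pair 1 (adjusted p = 0.00350), 2.99 ± 0.47 in MPPs (adjusted p = 0.0147), and 2.97 ± 0.47 and 3.07 ± 0.47 for myeloid progenitor pair 3 against pairs 1 and 2 (adjusted p = 0.0480 and 0.0191).

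Irf1 (Entrez Gene 16362), a factor with the GAS core shown above, read 582 and 354 in control and 461 and 400.1 in knockout LT-HSCs. It read 701 and 437 in control and 436 and 281 in knockout MPPs. Irf1 in myeloid progenitors was 401, 474 and 261 in controls and 268, 348 and 299 in knockouts. Both arrays of LT-HSC pair 2 lay below both of pair 1, and both of myeloid progenitor pair 3 below both of pair 2, while the MPP pairs and myeloid progenitor pairs 1 and 3 overlapped. The differences were -0.61 ± 0.21 in LT-HSCs, -0.62 ± 0.21 in MPPs and -0.61 ± 0.21 for myeloid progenitor pair 3 against pair 2. None of these passed on its own (adjusted p = 0.0628, 0.0986 and 0.172), and the F test over pairs did (adjusted p = 0.0446).

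Irf9 and Stat2, which act together at the ISRE, varied less than Irf7 but not less than Irf1. The highest of the 14 arrays over the lowest was 2.83 for Irf9, 3.81 for Stat2, 47.1 for Irf7 and 2.69 for Irf1. Irf9 (Entrez Gene 16391) was 166 and 220.3 in control and 167 and 174 in knockout LT-HSCs, and 86.7 and 208 in control and 100.1 and 156 in knockout MPPs. Irf9 in myeloid progenitors was 77.8, 142 and 168 in controls and 78.1, 166 and 192 in knockouts. Here myeloid progenitor pair 1 was low and pairs 2 and 3 were alike. Both arrays of MPP pair 2 lay above both of pair 1, while the LT-HSC pairs differed by 0.05 ± 0.24 only. The F test over pairs was passed (adjusted p = 0.0313). Stat2 (Entrez Gene 20847) was 97.5 and 157 in control and 52.9 and 113 in knockout LT-HSCs, and 80.4 and 102 in control and 183 and 86.01 in knockout MPPs. Stat2 in myeloid progenitors was 48.03, 88.5 and 119 in controls and 63.5, 86.9 and 91.1 in knockouts. Its differences between pairs ran from -0.38 in MPPs to 0.61 for myeloid progenitor pair 3 against pair 1, and none passed.

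**Figure D2:**
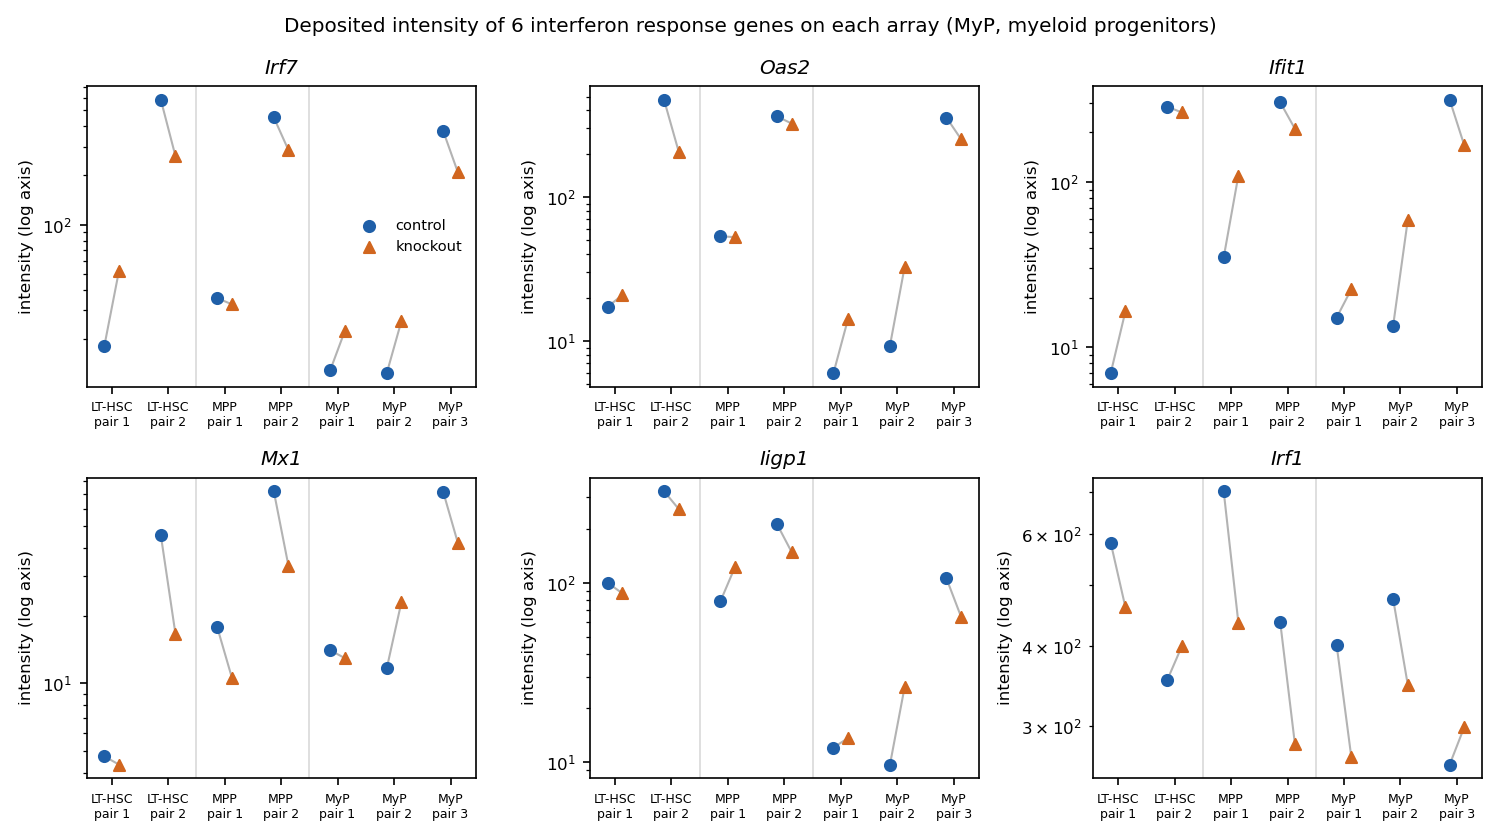
Deposited intensity (log axis) of Irf7, Oas2, Ifit1, Mx1, Iigp1 and Irf1 on each of the 14 arrays, with circles for control and triangles for knockout and a grey line joining the 2 arrays of a littermate pair. For Irf7, Oas2 and Ifit1 LT-HSC pair 2, MPP pair 2 and myeloid progenitor pair 3 stand far above the other pairs in both genotypes, Iigp1 is also lower in myeloid progenitors than in LT-HSCs, and Irf1 is highest on MPP control array 1.

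Usp18 and Trim25, which act on the pathway through ubiquitin and ubiquitin-like proteins, were both called by the F test. Usp18 (Entrez Gene 24110), the protease that removes Isg15 and blocks the interferon receptor, was 25.8 and 195 in control and 70.6 and 139 in knockout LT-HSCs, and 18.8 and 169 in control and 18.2 and 130.3 in knockout MPPs. Usp18 in myeloid progenitors was 16.8, 10.2 and 144 in controls and 15.3, 22.7 and 100.03 in knockouts. The differences were 1.43 ± 0.37 in LT-HSCs (adjusted p = 0.0226), 2.40 ± 0.37 in MPPs (adjusted p = 0.0138) and 2.06 ± 0.37 for myeloid progenitor pair 3 against pair 2 (adjusted p = 0.0294). Trim25 (Entrez Gene 217069), a ubiquitin ligase of RNA sensing, moved by less than 1 on the log2 scale in each contrast, at 0.78 ± 0.13 in LT-HSCs, 0.57 ± 0.13 in MPPs and 0.76 ± 0.13 for myeloid progenitor pair 3 against pair 2, and all 3 passed. Its intensity was 1290.2 and 2832 in control and 1269 and 2385 in knockout LT-HSCs, and 1651 and 2556 in control and 1635 and 2339 in knockout MPPs. Trim25 in myeloid progenitors was 1378, 1194 and 2616 in controls and 1506, 1589.96 and 2562 in knockouts.

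The sensors and enzymes of double-stranded RNA and other nucleic acids were called by the F test in 8 of 8 cases, with LT-HSC differences from 1.17 (Eif2ak2) to 3.18 (Oas2). All 8 were called higher in LT-HSC pair 2 (median 2.04), 7 in MPP pair 2 (median 2.09), and 4 and 7 for myeloid progenitor pair 3 against pairs 1 and 2 (medians 2.02 and 1.96). Oasl2 and Zbp1 passed the filter only through the high pairs, and without them the counts were 6 of 6 in LT-HSCs (median 1.45), 5 in MPPs (median 1.88), and 3 and 5. Oas1a (Entrez Gene 246730), one of the oligoadenylate synthetases that activate RNase L and the bearer of overlapping ISRE cores above, was 114 and 1405 on control and 174 and 817 on knockout LT-HSC arrays. It was 199 and 1112 in control and 143 and 761 in knockout MPPs and 121, 142 and 1347 in control and 103, 183 and 958 in knockout myeloid progenitors. Both arrays of LT-HSC pair 2, MPP pair 2 and myeloid progenitor pair 3 lay above all other arrays of their population. The differences were 2.65 ± 0.30, 2.33 ± 0.30, 3.02 ± 0.30 and 2.61 ± 0.30 for LT-HSCs, MPPs and myeloid progenitor pair 3 against pairs 1 and 2 (adjusted p = 0.00123, 0.00682, 0.00342 and 0.00560).

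Oas2 (Entrez Gene 246728), another synthetase, had the largest difference of the 33 members between myeloid progenitor pairs 3 and 1, with intensities of 5.99, 9.30 and 357 in controls and 14.3, 32.7 and 252 in knockouts. In LT-HSCs it was 17.3 and 475 in controls and 20.9 and 207 in knockouts, and in MPPs 53.5 and 364 in controls and 52.7 and 325 in knockouts. The differences were 3.18 ± 0.38 in LT-HSCs (adjusted p = 0.00144), 2.41 ± 0.38 in MPPs (adjusted p = 0.0141) and 3.48 ± 0.38 for myeloid progenitor pair 3 against pair 1 (adjusted p = 0.00607). Oasl2 (Entrez Gene 23962), a synthetase-like protein, followed the same order, with 9.51 and 174 in control and 14.99 and 137 in knockout LT-HSCs, and 45.3 and 219.7 in control and 22.9 and 140.1 in knockout MPPs. Oasl2 in myeloid progenitors was 17.5, 11.6 and 191 in controls and 10.1, 18.6 and 134 in knockouts. Its differences of 2.57 ± 0.29 in LT-HSCs, 2.06 ± 0.29 in MPPs and 2.43 ± 0.29 for myeloid progenitor pair 3 against pair 1 all passed (adjusted p = 0.00123, 0.00882 and 0.0109). Oasl1 (Entrez Gene 231655), its relative that restrains Irf7 translation, differed by 2.12 ± 0.38 in MPPs (adjusted p = 0.0199) and by 1.30 ± 0.38 in LT-HSCs (adjusted p = 0.0337). Its intensity was 19.5 and 119 in control and 45.99 and 102 in knockout LT-HSCs, and 10.6 and 100.2 in control and 8.16 and 75.02 in knockout MPPs. Oasl1 in myeloid progenitors was 8.62, 6.38 and 122 in controls and 12.4, 25.96 and 71.4 in knockouts.

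Zbp1 (Entrez Gene 58203), a sensor of Z-form nucleic acid, was 2.91 and 245 in control and 65.1 and 224 in knockout LT-HSCs, and 23.3 and 124 in control and 16.6 and 146 in knockout MPPs. Zbp1 in myeloid progenitors was 11.1, 15.04 and 158 in controls and 12.6, 13.1 and 91.6 in knockouts. LT-HSC control array 1 was the lowest of the 14, but a second Zbp1 probe set read 66.5 there and 18.4 on LT-HSC knockout array 1, the reverse order. The differences of 2.57 ± 0.45 in LT-HSCs and 2.20 ± 0.45 in MPPs passed (adjusted p = 0.00471 and 0.0261), as did 2.12 ± 0.45 for myeloid progenitor pair 3 against pair 2 (adjusted p = 0.0488). Ifih1 (Entrez Gene 71586), the cytoplasmic receptor of poly(I)poly(C), was 111 and 365 in control and 80.3 and 309 in knockout LT-HSCs, and 149 and 324 in control and 61.03 and 338 in knockout MPPs. Ifih1 in myeloid progenitors was 119, 74.4 and 311 in controls and 80.8, 119 and 277 in knockouts. It had differences of 1.51 ± 0.32 in LT-HSCs and 1.63 ± 0.32 in MPPs, both called. Eif2ak2 (Entrez Gene 19106), the kinase PKR that stops translation on double-stranded RNA, differed by 1.17 ± 0.22 in LT-HSCs and 1.70 ± 0.22 for myeloid progenitor pair 3 against pair 2, which passed, and by 0.67 ± 0.22 in MPPs, which did not (adjusted p = 0.0910). Its intensity was 314 and 882 in control and 292 and 682 in knockout LT-HSCs, and 519.5 and 1023 in control and 624 and 805 in knockout MPPs. Eif2ak2 in myeloid progenitors was 411, 246 and 1123 in controls and 310.1, 313 and 902 in knockouts. Adar (Entrez Gene 56417), the enzyme that edits adenosine to inosine in double-stranded RNA, was 74.02 to 328 over the 14 arrays. It was called in both the LT-HSC and MPP contrasts, at 1.39 ± 0.21 and 1.28 ± 0.21.

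All 10 tested antiviral effectors were called by the F test, but not in every contrast. 9 of the 10 were called higher in LT-HSC pair 2 (median 1.32), 3 in MPP pair 2 (Ifit3, Mx1 and Bst2, median 1.17), and 4 for myeloid progenitor pair 3 against pair 2 (median 1.20). Ifit3 and Mx1 passed the filter only through the high pairs, and without them 7 of 8 were called in LT-HSCs and Bst2 alone in MPPs (median 0.99). Ifit1 (Entrez Gene 15957), which binds viral RNA without a self cap and has the separate ISRE cores above, was 6.97 and 287 on control and 16.5 and 264 on knockout LT-HSC arrays, 35.00 and 305 in control and 109.5 and 211 in knockout MPPs. Ifit1 in myeloid progenitors was 15.1, 13.5 and 316 in controls and 22.5, 59.3 and 167 in knockouts. Its difference of 3.39 ± 0.51 in LT-HSCs was the highest of the 33 members there (adjusted p = 0.00309), while the 1.77 ± 0.51 of MPPs did not pass (adjusted p = 0.0648), with MPP knockout array 1 at 109.5 and control array 1 at 35.00.

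Ifit3 (Entrez Gene 15959), a partner of Ifit1 and the second gene with separate cores, was dim, at 13.8 and 57.99 in control and 10.2 and 31.2 in knockout LT-HSCs, and 23.1 and 97.4 in control and 16.1 and 48.9 in knockout MPPs. Ifit3 in myeloid progenitors was 5.86, 1.73 and 23.8 in controls and 9.65, 4.95 and 18.6 in knockouts. It was called in LT-HSCs at 1.05 ± 0.26 and in MPPs at 1.39 ± 0.26. Ifit2 (Entrez Gene 15958), which promotes apoptosis, was 87.5 to 301 over the 14 arrays and differed by 0.78 ± 0.29 in LT-HSCs and 0.90 ± 0.29 in MPPs, and neither passed (adjusted p = 0.0753 and 0.0845). Rsad2 (Entrez Gene 58185), the radical enzyme viperin, was 28.7 and 516 in control and 172 and 471 in knockout LT-HSCs, and its difference of 2.33 ± 0.57 passed there (adjusted p = 0.0183). In MPPs it was 214 and 584 in controls and 179 and 486 in knockouts, and in myeloid progenitors 77.2, 35.03 and 425 in controls and 76.2, 187 and 282 in knockouts, and the differences between pairs did not pass. Bst2 (Entrez Gene 69550), tetherin, which holds budding virus at the cell surface, was 73.5 and 313 in control and 66.9 and 321 in knockout LT-HSCs, and 49.3 and 400.1 in control and 126 and 305 in knockout MPPs. Bst2 in myeloid progenitors was 57.5, 89.3 and 445 in controls and 93.3, 70.2 and 330.2 in knockouts. It differed by 1.81 ± 0.36 in LT-HSCs, 1.92 ± 0.36 in MPPs and 2.03 ± 0.36 for myeloid progenitor pair 3 against pair 2, and all 3 passed. Ifi35 (Entrez Gene 70110), at 58.9 to 269.8 over the 14 arrays, was called in LT-HSCs at 1.22 ± 0.30 and read 1.09 ± 0.30 in MPPs (adjusted p = 0.0590).

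Mx1 (Entrez Gene 17857), a dynamin-like GTPase against orthomyxoviruses whose promoter drives Cre in the knockouts, was 4.73 and 45.8 in control and 4.34 and 16.6 in knockout LT-HSCs. It was 17.7 and 71.8 in control and 10.6 and 33.4 in knockout MPPs. Mx1 in myeloid progenitors was 14.03, 11.7 and 71.2 in controls and 12.9, 23.03 and 42.1 in knockouts. C57BL/6 mice carry a defective Mx1 allele, so its signal stands for transcript and not for a working protein. Within each genotype LT-HSC pair 2, MPP pair 2 and myeloid progenitor pair 3 were the highest of their population, with differences of 1.10 ± 0.33 in LT-HSCs (adjusted p = 0.0371) and 1.25 ± 0.33 in MPPs (adjusted p = 0.0489). Mx2 (Entrez Gene 17858), which did not pass the filter, was 5.00 and 34.4 in control and 1.00 and 3.25 in knockout LT-HSCs, and 6.12 and 20.7 in control and 1.83 and 13.4 in knockout MPPs. Mx2 in myeloid progenitors was 2.99, 1.74 and 18.6 in controls and 3.15, 9.38 and 12.8 in knockouts.

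The Ifitm genes, whose proteins block virus entry at endosomal membranes, were called between the LT-HSC pairs and not between the MPP pairs. Ifitm1 (Entrez Gene 68713) was 159 and 1023 in control and 197 and 1153 in knockout LT-HSCs, and 2165 and 1820.4 in control and 1483 and 2082 in knockout MPPs. Ifitm1 in myeloid progenitors was 755, 225 and 1044 in controls and 688, 255 and 1226 in knockouts. LT-HSC pair 2 was far above pair 1, at 2.37 ± 0.18 (adjusted p = 0.000221), while the MPP pairs overlapped, at 0.14 ± 0.18 (adjusted p = 0.645). In myeloid progenitors pair 2, not pair 1, was the low one, and pair 3 exceeded it by 2.06 ± 0.18 (adjusted p = 0.00264). Ifitm3 (Entrez Gene 66141) was 837 and 3071 in control and 1140.01 and 2869.6 in knockout LT-HSCs, and 2807 and 3079.7 in control and 2527 and 2821 in knockout MPPs. Ifitm3 in myeloid progenitors was 1111, 1084 and 2813 in controls and 1365, 946 and 2747 in knockouts, so that the 4 MPP arrays were all near the level of LT-HSC pair 2 and myeloid progenitor pair 3. Ifitm2 (Entrez Gene 80876) was called in LT-HSCs at 1.28 ± 0.26 and read -0.41 ± 0.26 in MPPs, where it was 1234 and 853 in controls and 1215 and 965 in knockouts.

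**Figure D3:**
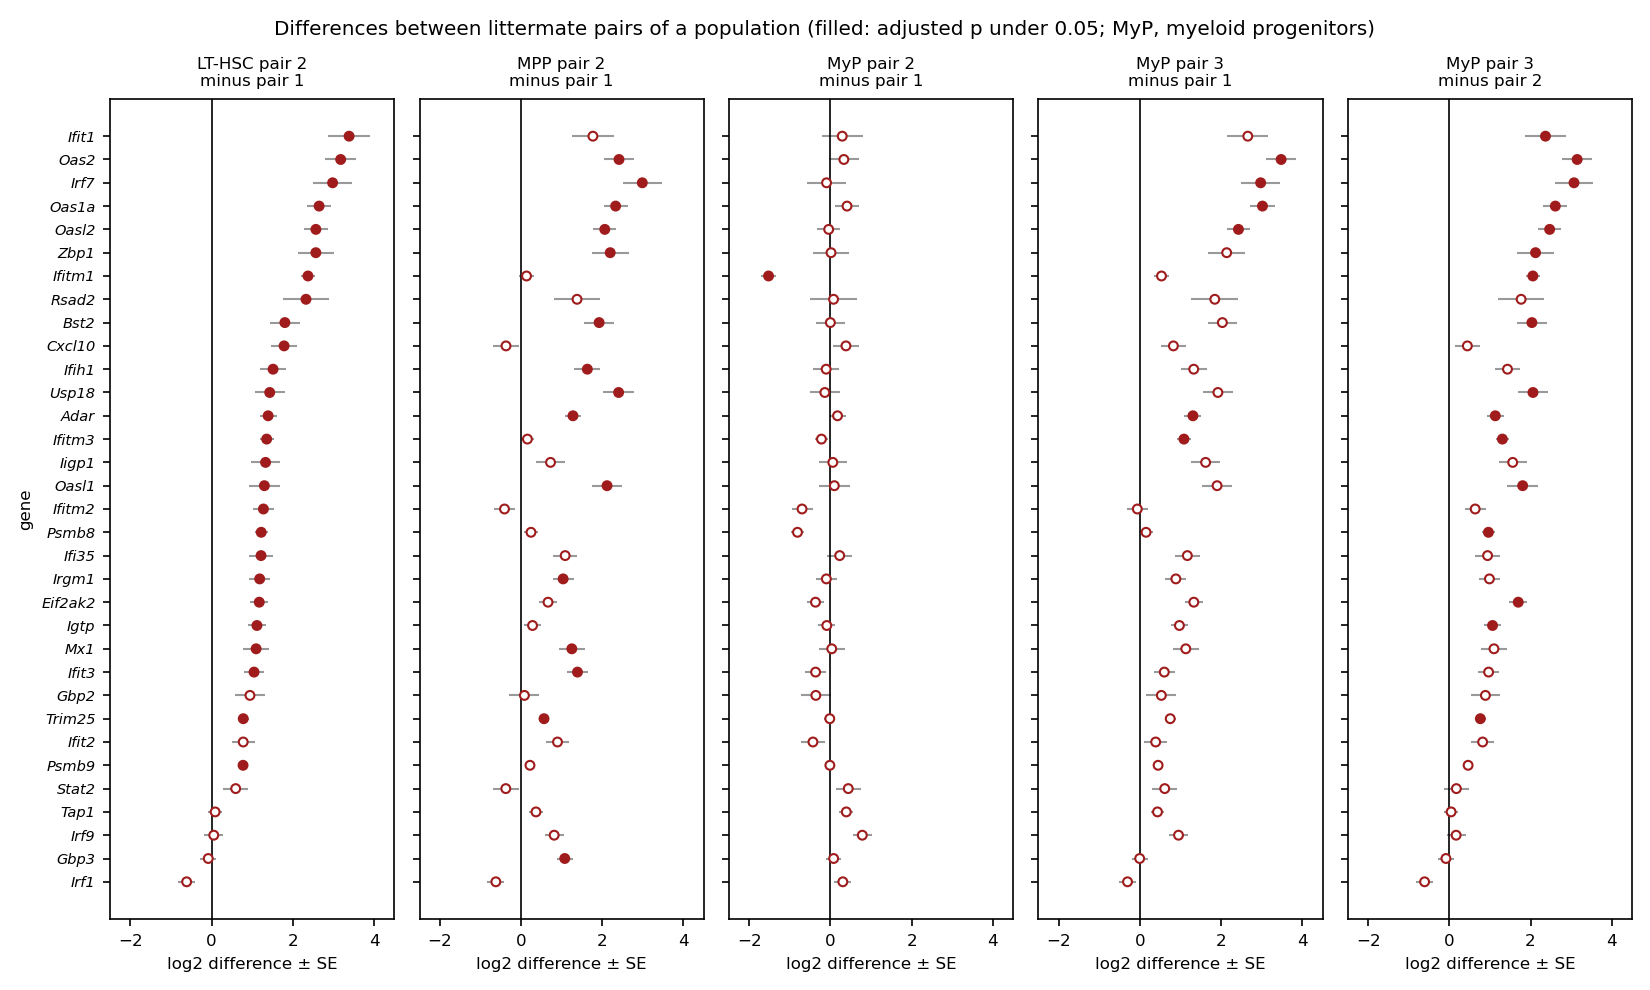
Log2 difference (horizontal axis, with its SE as a bar) between littermate pairs of a population for each of the 33 tested members, from a fit that holds the knockout effect of each population, with filled points for an adjusted p under 0.05. The points lie right of 0 in 4 panels for most genes and around 0 in the panel of myeloid progenitor pairs 1 and 2, and Ifitm1, Ifitm2, Ifitm3, Cxcl10 and Psmb8 are right of 0 and filled in LT-HSCs but near or left of 0 and open in MPPs, as are Igtp and Psmb9.

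Of the GTPases that attack vacuoles of intracellular pathogens, 4 of 5 were called by the F test. Igtp and Irgm1 (Entrez Gene 16145 and 15944) belong to the immunity-related GTPases and differed by 1.12 ± 0.21 and 1.18 ± 0.26 in LT-HSCs, both called. Igtp was 192 and 485 in control and 195 and 489 in knockout LT-HSCs, and 379.6 and 454 in control and 424 and 531 in knockout MPPs. Igtp in myeloid progenitors was 231, 163 and 422 in controls and 160.2, 214 and 423 in knockouts. Irgm1 was 68.3 and 245 in control and 77.9 and 181 in knockout LT-HSCs, and 90.3 and 228 in control and 102 and 207 in knockout MPPs. Irgm1 in myeloid progenitors was 104, 76.2 and 220.1 in controls and 87.4, 112 and 192 in knockouts, so that its pairs did not overlap in any population, apart from myeloid progenitor pairs 1 and 2. In MPPs Irgm1 was called at 1.04 ± 0.26, and Igtp read 0.28 ± 0.21 (adjusted p = 0.405). Iigp1 (Entrez Gene 60440), of the same family, was 100.1 and 324 in control and 87.3 and 257 in knockout LT-HSCs, and 78.9 and 212 in control and 123 and 148 in knockout MPPs. Iigp1 in myeloid progenitors was 12.1, 9.68 and 106 in controls and 13.6, 26.2 and 64.5 in knockouts. It was called between the LT-HSC pairs, at 1.33 ± 0.35 (adjusted p = 0.0230), and myeloid progenitor pair 3 exceeded pair 2 by 1.56 ± 0.35 without passing (adjusted p = 0.0527). Gbp2 (Entrez Gene 14469), a guanylate-binding protein, was 27.3 to 147 over the 14 arrays and nearly level between the MPP pairs, at 99.6 and 118 in controls and 113 and 117 in knockouts.

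Gbp3 (Entrez Gene 55932), a second guanylate-binding protein with overlapping ISRE cores, was 156 and 169 in control and 199 and 209 in knockout LT-HSCs, and 160.4 and 377 in control and 189.8 and 397 in knockout MPPs. Gbp3 in myeloid progenitors was 386, 358 and 339.7 in controls and 335, 411 and 426 in knockouts. The difference between the MPP pairs was called, at 1.08 ± 0.19 (adjusted p = 0.0199), while the LT-HSC pairs were at -0.08 ± 0.19 and all 6 myeloid progenitor arrays lay between 335 and 426.

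Of the antigen processing genes Psmb8 and Psmb9 were called by the F test and Tap1 was not, and the chemokine Cxcl10 was called. Psmb8 and Psmb9 (Entrez Gene 16913 and 16912) encode subunits of the immunoproteasome, which cuts peptides for MHC class I, and were called in LT-HSCs at 1.22 ± 0.16 and 0.78 ± 0.12. Psmb8 was 584 and 1409 in control and 571 and 1681 in knockout LT-HSCs, and 1738 and 1864 in control and 1412 and 1843 in knockout MPPs. Psmb8 in myeloid progenitors was 1715, 754 and 1798 in controls and 1374, 976 and 1917 in knockouts, and Psmb9 was 1321 to 2978 over the 14 arrays. In MPPs they read 0.25 ± 0.16 and 0.22 ± 0.12, and neither passed (adjusted p = 0.345 and 0.237). Tap1 (Entrez Gene 21354), the peptide transporter next to them in the MHC region, was 418 to 789 over the 14 arrays and was called in no contrast between pairs. Cxcl10 (Entrez Gene 15945), a chemokine for T cells, was 6.10 and 38.7 in control and 11.6 and 119.8 in knockout LT-HSCs, and 85.3 and 56.3 in control and 109 and 95.2 in knockout MPPs. Cxcl10 in myeloid progenitors was 19.1, 52.1 and 68.4 in controls and 32.2, 33.4 and 62.1 in knockouts. Its difference was 1.79 ± 0.31 in LT-HSCs (adjusted p = 0.00471) and -0.37 ± 0.31 in MPPs (adjusted p = 0.464). Cxcl10, Igtp, Ifitm1, Ifitm2, Ifitm3, Psmb8 and Psmb9 were the members called in LT-HSCs with an MPP difference below that of any other called member. They were picked out after their values were seen, and the difference between the populations was not tested.

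Genes of the pathway that are not members were read from 2 lists. Of 30 upstream genes (receptors, kinases, sensors, adaptors and interferons), 22 were tested and the F test called 2, Dhx58 and Myd88 (adjusted p = 0.0326). That is 9.09%, below the 20.2% of all genes. In single contrasts 1 was higher and 2 lower in LT-HSC pair 2, 2 were higher in MPP pair 2, and 0 differed in myeloid progenitors. The median difference was -0.09 between the LT-HSC pairs and 0.10 between the MPP pairs. Among all genes, 12.6% were higher and 839 of 8612 lower in LT-HSC pair 2, and 2.98% were higher in MPP pair 2. So the LT-HSC counts did not exceed the background. Dhx58, the sensor LGP2 and itself interferon-induced, was 21.6 and 187 in control and 15.7 and 129.9 in knockout LT-HSCs, and 20.8 and 99.5 in control and 33.9 and 71.2 in knockout MPPs. Dhx58 in myeloid progenitors was 19.02, 20.8 and 123 in controls and 22.9, 36.6 and 70.2 in knockouts (adjusted p = 0.00521). The receptor subunit Ifnar1 read 162 and 184 in control and 51.7 and 129 in knockout LT-HSCs, and 81.05 and 115 in control and 90.6 and 91.7 in knockout MPPs. Ifnar1 in myeloid progenitors was 94.3, 124 and 97.8 in controls and 92.3, 105 and 111 in knockouts, with no order by pair (adjusted p = 0.553). Of 37 other interferon-induced genes, 28 were tested and the F test called 12, or 42.9%. Ifi204, among the 12 (adjusted p = 0.00607), was 3.88 to 8.18 outside LT-HSC pair 2, MPP pair 2 and myeloid progenitor pair 3. It read 55.4 and 26.7 in MPP pair 2 and 39.8 and 38.5 in myeloid progenitor pair 3, so its call is no support for the pattern. Whether others of the 12 passed the filter only through these pairs was not checked. Of these 28, 9 were called higher in LT-HSC pair 2, 6 in MPP pair 2, and 1 and 6 for myeloid progenitor pair 3 against pairs 1 and 2. The medians were 0.51, 0.54, 0.57 and 0.60, and 0 were called lower. The shares of all genes called higher were 12.6%, 2.98%, 0.128% and 1.14%. Rtp4, a chaperone of receptors, had the lowest p of these and was 33.3 and 615 in control and 74.1 and 320.1 in knockout LT-HSCs, and 72.9 and 425 in control and 47.1 and 244 in knockout MPPs. Rtp4 in myeloid progenitors was 16.8, 14.1 and 322 in controls and 16.9, 39.4 and 235 in knockouts. Parp9, Lgals3bp and Isg20 followed (adjusted p = 0.00228, 0.00346 and 0.00533).

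Markers of granulocytes and B cells and ratios that index RNA quality also differed between these pairs. The 6 mature granulocyte markers were all called by the F test, and their summed intensity was 521 and 1795 on control and 156 and 7055 on knockout LT-HSC arrays 1 and 2. It was 2319 and 3566 in control and 581 and 6671 in knockout MPPs, and 5037, 3461 and 11754 in control and 1919, 965 and 12276 in knockout myeloid progenitors. In each genotype and population the pair with the highest member median had the highest granulocyte sum, although LT-HSC control 2 (member median 324) was below myeloid progenitor control 1 (member median 77.8). B cell markers went the other way: 6 of 8 were called, and their sum was lower in LT-HSC pair 2, MPP pair 2 and myeloid progenitor pair 3 than in the other pairs of the population, in both genotypes. The F test called 2 of 8 monocyte and macrophage markers, 1 of 7 T and NK cell markers and 1 of 5 MHC class II markers. These shares of 25%, 14.3% and 20% were near the 20.2% of all genes, so these counts did not stand out from the background. The same test called 0 of 4 erythroid markers and 2 of 5 plasmacytoid dendritic cell markers, a list that holds the member Bst2. Markers of the sorted populations differed between pairs as well. Both tested sort markers were called, Kit and Cd34 (F test, adjusted p = 0.0201 and 0.0151). So were 3 of 7 myeloid progenitor markers (Mpo, Elane and Klf1), 1 of 3 MPP markers (Cd34) and 0 of 4 LT-HSC markers. As the lowest deposited value was 0.73, the intensities cannot show whether a marker was absent from an array. The part of these markers in the differences was not tested.

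The ratio of the 3′ to the 5′ Gapdh control probe sets, which rises when RNA is degraded or copied incompletely, was 5.44 and 3.07 in control and 5.15 and 2.46 in knockout LT-HSCs. It was 2.86 and 2.44 in control and 2.66 and 2.53 in knockout MPPs, and 5.27, 4.30 and 2.25 in control and 2.33, 4.35 and 2.36 in knockout myeloid progenitors. LT-HSC pair 2 and MPP pair 2 had lower ratios than pair 1 in both genotypes, though the MPP ratios differed little. Myeloid progenitor pair 3 was lower than pair 2 but in knockouts not lower than pair 1: myeloid progenitor knockout array 1, at 2.33, had a member median of 80.8. The same ratio for the Actb control probe sets was 0.808 and 0.968 in control and 0.754 and 1.09 in knockout LT-HSCs, and 1.04 and 1.10 in control and 0.833 and 1.08 in knockout MPPs. In myeloid progenitors it was 1.18, 0.921 and 1.13 in controls and 1.13, 1.02 and 1.04 in knockouts. So the Actb ratio ran the other way from the Gapdh ratio in LT-HSCs and MPPs, higher in pair 2 than in pair 1 in both genotypes, and myeloid progenitor pair 3 lay between pairs 2 and 1. The part of RNA quality in the differences was not tested.

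**Figure D4:**
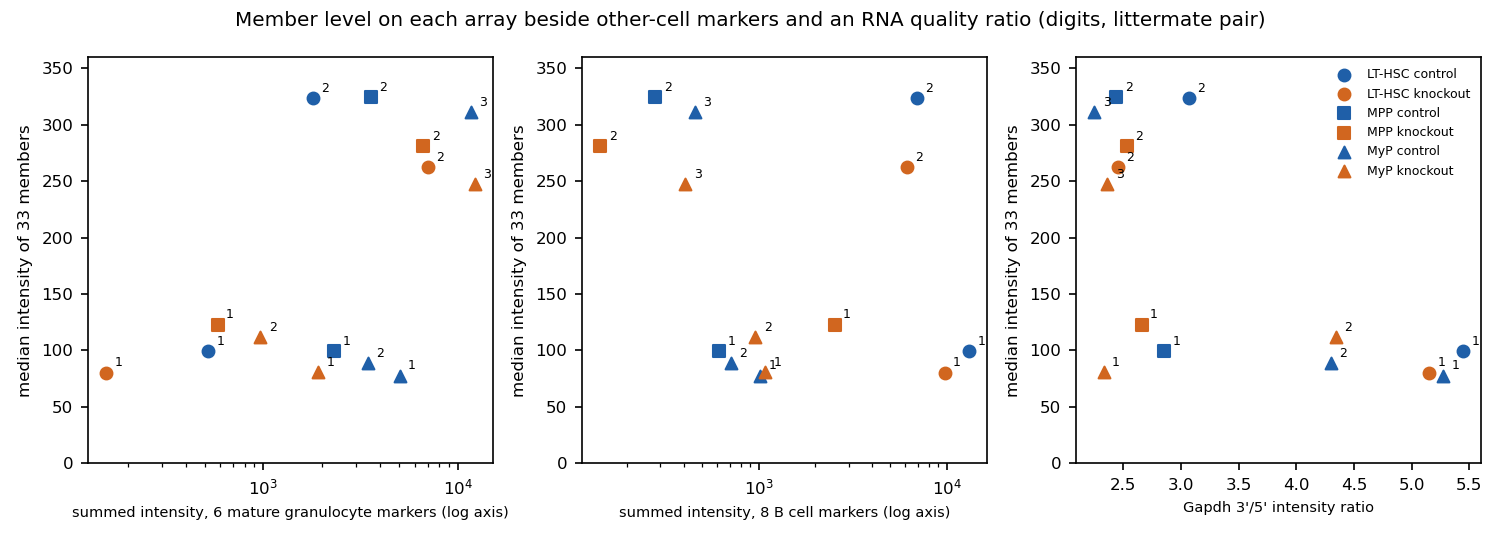
Median intensity of the 33 members (vertical axis) on each of the 14 arrays against the summed intensity of mature granulocyte markers (left, log axis), of B cell markers (middle, log axis) and the Gapdh 3′ to 5′ intensity ratio (right), with a shape for each population, a colour for each genotype and the number of the littermate pair beside each point. The 6 arrays with a member median of at least 247 are separate from the 8 with at most 123 in all 3 panels, and their granulocyte sums, B cell sums and Gapdh ratios overlap with those of the other arrays.

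Loss of Dnmt1 was compared with control in each population, which asks whether the interferon-induced genes depend on the maintenance methyltransferase after equal injection. No member passed in LT-HSCs, MPPs or myeloid progenitors, nor on average over them, in limma. Among all genes, 0.0697% were called in LT-HSCs, the same share in MPPs, 0.0929% in the myeloid population and 0.232% on average. At an unadjusted p under 0.05 the count was also 0 of 33 in each, where 6.61%, 2.65%, 1.02% and 6.06% of all genes were under it. The median difference, knockout minus control, of the members was -0.04, -0.09, 0.05 and 0.01, and the lowest adjusted p of a member was 0.910 in LT-HSCs. Leaving out 1 LT-HSC array moved the LT-HSC median to between -0.78 and 0.63, and leaving out 1 MPP array moved the MPP median to between -0.55 and 0.45. A member had a median SE of 0.64 for LT-HSCs and MPPs, 0.52 for myeloid progenitors and 0.35 on average, since the spread between littermate pairs counts as error there.

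With the littermate pairs as blocks, the median SE fell to 0.29, 0.29, 0.23 and 0.16, and again no member passed. The shares of all genes called were then 0.232%, 0.151%, 0.151% and 0.801%. At an unadjusted p under 0.05 the blocked fit had 2 members higher in LT-HSCs (Cxcl10 and Zbp1), 3 lower in MPPs (Irf1, Adar and Oasl2), 1 higher in myeloid progenitors (Psmb9), and 2 higher (Cxcl10 and Gbp3) and 2 lower (Adar and Irf1) on average. The shares of all genes in the same directions were 7.8%, 3.76%, 1.52%, 6.93% and 7.08%, so the LT-HSC and average counts were near the background and the others rest on 3 genes and 1. Taken pair by pair, the median of the members was 0.09 and -0.20 in LT-HSC pairs 1 and 2, -0.02 and -0.17 in MPP pairs 1 and 2, and 0.02, 0.36 and -0.13 in myeloid progenitor pairs 1, 2 and 3. The knockout was lower for 24 of 33 members in LT-HSC pair 2, 23 in MPP pair 2 and 23 in myeloid progenitor pair 3, and for 13, 19, 14 and 7 in the other 4 pairs, in the same order. This split by pair was seen after the fact and was not tested.

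**Figure D5:**
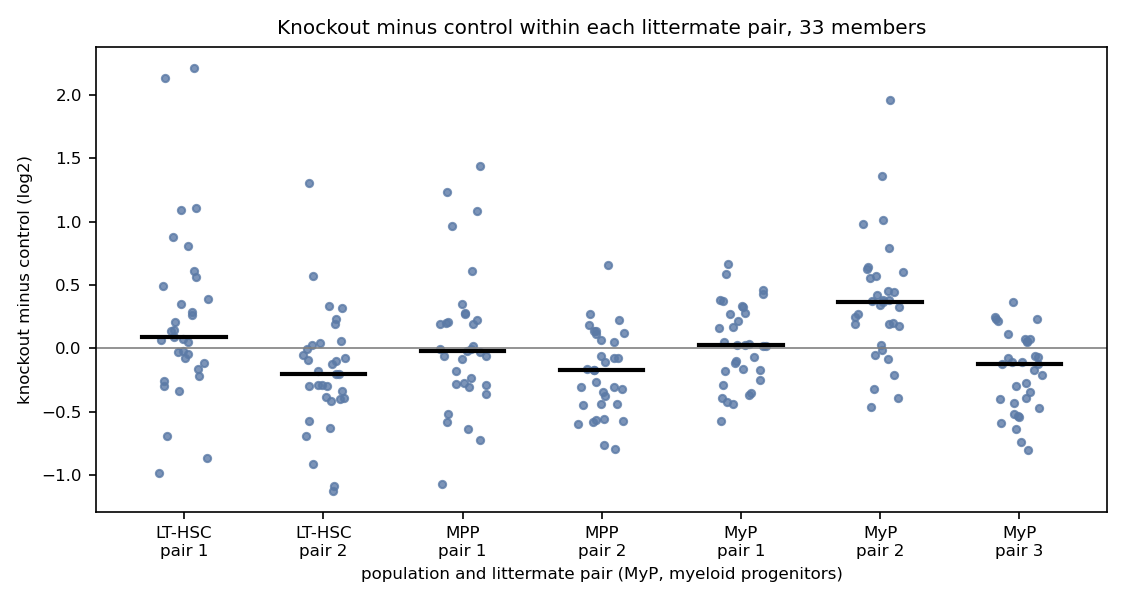
Difference between the knockout and the control array of each littermate pair on the scale log2(intensity + 16) (vertical axis), with a point for each of the 33 members and a black line at their median. The medians run from -0.20 in LT-HSC pair 2 to 0.36 in myeloid progenitor pair 2, and points lie on both sides of 0 in every pair.

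The members at the ends of these comparisons give their range. In LT-HSCs the highest were Zbp1 at 1.06 ± 1.22, Rsad2 at 1.00 ± 1.07 and Cxcl10 at 0.80 ± 0.63, and the lowest Stat2 at -0.55 ± 0.40, Oas2 at -0.49 ± 1.56 and Mx1 at -0.48 ± 0.65. The values of Zbp1 and Rsad2 rested on LT-HSC pair 1, where Zbp1 was 2.91 in the control and 65.1 in the knockout and Rsad2 28.7 and 172. Cxcl10 differed by 0.29 in pair 1 and by 1.30 in pair 2. With the second Zbp1 probe set the LT-HSC difference was -0.92. In MPPs the highest were Ifi35 at 0.52 ± 0.64, Cxcl10 at 0.50 ± 0.63 and Ifit1 at 0.49 ± 1.39, and the lowest Oasl2 at -0.64 ± 1.22, Irf1 at -0.60 ± 0.37 and Adar at -0.58 ± 0.69. Myeloid progenitors had a narrower span, from Zbp1 at -0.21 ± 0.99, Irf1 at -0.17 ± 0.30 and Oasl2 at -0.13 ± 1.00 to Ifitm2 at 0.29 ± 0.40, Oas2 at 0.35 ± 1.27 and Rsad2 at 0.49 ± 0.87. Irf7 read -0.33 ± 1.56 in MPPs and 0.09 ± 1.27 in myeloid progenitors, Stat2 0.46 ± 0.40 in MPPs, and Mx1 -0.55 ± 0.65 in MPPs and -0.02 ± 0.53 in myeloid progenitors.

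On average over the populations Mx1 was lowest at -0.35 ± 0.36, followed by Adar at -0.34 ± 0.37 and Ifit3 at -0.28 ± 0.33, and Rsad2 was highest at 0.42 ± 0.58, followed by Cxcl10 at 0.42 ± 0.34 and Ifit1 at 0.33 ± 0.76. Irf7 was at -0.08 ± 0.85 and Stat2 at -0.03 ± 0.22. Adar was lower in the knockout of all 7 pairs, with an average of -0.34 ± 0.11 in the blocked fit (adjusted p = 0.222). Gbp3 was higher in the knockout of all 7 pairs, with an average of 0.25 ± 0.11 (adjusted p = 0.321). Both genes were singled out after their values were seen. For Adar the intensities were 99.7 and 328 in control and 74.8 and 243 in knockout LT-HSCs, and 122 and 324 in control and 74.02 and 204 in knockout MPPs. Adar in myeloid progenitors was 91.7, 109.7 and 278 in controls and 83.8, 104 and 247 in knockouts. The knockout effect did not differ between populations for any member or any other gene in limma (0 of 8612 in each of the 3 interaction terms), and at an unadjusted p under 0.05 it was 0 members in each term, beside 3.02% of all genes (LT-HSCs against MPPs), 2.65% (LT-HSCs against myeloid progenitors) and 0.488% (MPPs against myeloid progenitors). In the blocked fit again no member was called in any of the 3 terms. At an unadjusted p under 0.05 it had 1 member for LT-HSCs against MPPs (Stat2) and 1 for LT-HSCs against myeloid progenitors (Psmb9). Both were at an unadjusted limma p of 0.046, where 8.14% and 7.85% of all genes were under 0.05. For MPPs against myeloid progenitors it had 0.

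Between populations, with control and knockout arrays averaged, few members stood out from the spread between pairs. A mean over pairs holds 1 pair with a member median of at least 247 among 2 in LT-HSCs and MPPs, and 1 among 3 in myeloid progenitors. In LT-HSCs against myeloid progenitors, 2 of 33 members passed beside 14.1% of all genes. Iigp1 differed by 2.01 ± 0.47 (adjusted p = 0.0117) and was the higher in LT-HSCs. All 4 LT-HSC arrays, at 87.3 to 324, exceeded the arrays of myeloid progenitor pairs 1 and 2, at 9.68 to 26.2, and the pair 2 LT-HSC arrays at 324 and 257 exceeded the pair 3 myeloid progenitor arrays at 106 and 64.5. Gbp3 was lower in LT-HSCs, at -0.97 ± 0.24 (adjusted p = 0.0157), with 156 to 209 on the LT-HSC arrays and 335 to 426 on the myeloid progenitor arrays, which did not overlap. Each call was lost under 1 alternative: Iigp1 with array weights (adjusted p = 0.135) and Gbp3 with a block of genotype and replicate number across populations (adjusted p = 0.0888). The next highest were Usp18 at 1.00 ± 0.68 and Zbp1 and Irf7 at 0.99 ± 0.78 and 0.99 ± 1.01, and the next lowest Mx1 at -0.50 ± 0.42 and Psmb8 at -0.45 ± 0.31, none of which passed. Stat2 was at 0.25 ± 0.26.

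In LT-HSCs against MPPs, no member passed beside 4.96% of all genes, and 0 were higher and 3 lower at an unadjusted p under 0.05, where 10.2% of all genes were higher and 11% lower. The lowest were Ifitm1 at -1.98 ± 0.63 (adjusted p = 0.0910), Cxcl10 at -1.18 ± 0.44 (adjusted p = 0.143) and Psmb8 at -0.78 ± 0.34 (adjusted p = 0.202), and the highest Oasl1 at 0.66 ± 0.68, Usp18 at 0.55 ± 0.74 and Zbp1 at 0.50 ± 0.86. Without LT-HSC control array 2, 2 members passed, and without knockout array 2, 3 did. In myeloid progenitors against MPPs, again no member passed beside 1.95% of all genes, with a median of -0.45 over the members. At an unadjusted p under 0.05, 0 members were higher and 6 lower, and 7.36% of all genes were higher and 7.19% lower. Iigp1 was lowest at -1.71 ± 0.47 (adjusted p = 0.0932), followed by Ifitm1 at -1.66 ± 0.58 and Oas2 at -1.24 ± 1.00, and Gbp3 was highest at 0.49 ± 0.24. Irf7 read -0.92 ± 1.01 and Stat2 -0.34 ± 0.26 there, and 0.06 ± 1.10 and -0.09 ± 0.28 in LT-HSCs against MPPs. Without myeloid progenitor control array 3, 1 member passed. In control arrays alone and in knockout arrays alone, no member passed between any of the populations. The shares of all genes called were 2.33% and 0.511% for LT-HSCs against MPPs, 0.0813% and 0% for myeloid progenitors against MPPs, and 6.44% and 3.75% for LT-HSCs against myeloid progenitors, controls first. The nearest were Iigp1 and Gbp3 in control LT-HSCs against control myeloid progenitors, at 2.16 ± 0.67 and -1.03 ± 0.34 (adjusted p = 0.0765 and 0.0940).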

How the data were processed

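RNA of 14 pooled samples was amplified (WT-Ovation Pico, per the labels' protocols) and hybridised to arrays with 22690 probe sets. Per the series matrix as deposited, the values are signal intensities on a linear scale, from 0.73 to 19239, with no log. The sources used here do not give how the authors scaled or summarised them. Groups and littermate pairs came from the labels. The members and gene lists were chosen with earlier results of these data known, and the F test over pairs and the pair contrasts were added after the values were seen.

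Probe sets with 1 gene symbol (20393) were used, 691 with several symbols were not, and 64 controls were left out. Intensities were taken as log2(intensity + 16) and quantile normalized. A probe set was kept if at least 2 arrays had it above percentile 40 of their own signals, and per gene the one with the highest mean over the arrays was kept. All 6 groups entered 1 limma fit with a variance trend (8 residual degrees of freedom, 4 with pair terms), with Benjamini-Hochberg adjustment over 8612 genes, and the scripts were tested on simulated data. Littermate pairs deviated together (r from 0.20 to 0.61, each above 0.1), so a fit with pairs as a replicate block was run beside it. Myeloid progenitor pairs 1, 2 and 3 had r = 0.20, 0.54 and 0.61. Both LT-HSC pairs had r = 0.46 and both MPP pairs r = 0.60. With 2 arrays per group the deviations from its mean mirror each other, so these 2 pairs must share a value. The r of the 7 pairs are therefore not independent of each other. Each sample is a pool of mice, so p-values of the fit without blocks measure the spread between pools of a group. In the fits with pair terms the error is what the pair terms and the knockout effects leave within littermate pairs. Their p-values, those of the pair contrasts and the F test included, therefore do not measure the spread between litters. Precision is limited by how few arrays there are.

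All members are named once. Full values go to members past a threshold (the 8 with the smallest p where there are more), the 3 highest and 3 lowest per comparison, and Irf7, Stat2 and Mx1. Promoters came from RefSeq tables (GRCm38.p6). Tools were R 4.3.3, limma 3.58.1, Python 3.11.15, numpy 2.4.6, pandas 2.3.3 and matplotlib 3.10.9. Alternatives covered the pseudocount, normalization, filter, probe set, block, arrays in the fit, trend, array weights and each array left out.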

Additional observations from a re-analysis of the deposited data

How the results depend on the processing

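Each call and difference was recomputed under 13 other settings and with each of the 14 arrays left out, and the pair counts under those that apply. No member was called between knockout and control under any of them, with or without the replicate block of littermate pairs. That block changed no call of a member. Of the 58 single gene differences followed, 2 passed the threshold, 13 changed sign under another setting and 32 when 1 array was left out. With the second probe set of a gene the sign turned for Zbp1 in knockout against control in LT-HSCs (-0.92), Stat2 in knockout against control in myeloid progenitors (-0.20) and Stat2 in LT-HSCs against MPPs (0.47). With a pseudocount of 64 the sign turned for Irf7 in knockout against control in LT-HSCs (-0.21), Irf7 in knockout against control in myeloid progenitors (-0.069) and Stat2 in knockout against control in myeloid progenitors (-0.0089). With values as deposited the sign turned for Irf7 in knockout against control in LT-HSCs (-0.050) and Stat2 in knockout against control in myeloid progenitors (-0.013). With median centring the sign turned for Irf7 in knockout against control in LT-HSCs (-0.038), Stat2 in knockout against control in myeloid progenitors (-0.00049) and Irf9 in myeloid progenitors against MPPs (0.050). With only the compared populations in the fit the sign turned for Irf7 in knockout against control in LT-HSCs (-0.0025). With array weights the sign turned for Irf1 in knockout against control in myeloid progenitors (0.11), Oas2 in knockout against control in myeloid progenitors (-1.14), Rsad2 in knockout against control in myeloid progenitors (-0.63), Irf7 in knockout against control in myeloid progenitors (-1.26), Stat2 in knockout against control in myeloid progenitors (-0.24), Ifit1 in the average knockout difference (-0.12), Irf9 in myeloid progenitors against MPPs (0.054) and Mx1 in myeloid progenitors against MPPs (0.31). With a pseudocount of 1 the sign turned for Mx1 in knockout against control in myeloid progenitors (0.065), Irf7 in the average knockout difference (0.073) and Mx1 in myeloid progenitors against MPPs (0.056). Array weights moved the member median in myeloid progenitors, knockout against control, to -0.37. The second probe set called 1 member in myeloid progenitors against MPPs. LT-HSCs against myeloid progenitors kept 1 call of 2 with array weights and 1 with the replicate block across populations. Same-numbered samples of LT-HSCs and MPPs deviated together weakly (r = 0.14 in controls and 0.22 in knockouts), while of 8 sets with myeloid progenitors 1 was above 0.1 (r from -0.42 to 0.31). The labels pair samples only within a population, and with 2 numbers per genotype in LT-HSCs and MPPs a pairing across them was not settled. In myeloid progenitor pair 3 against pair 1 the count of 6 became 3 with a pseudocount of 1, a pseudocount of 64, no filter or no variance trend, and against pair 2 the count of 16 became 4 with no variance trend. Without 1 array the values ranged as follows. In knockout against control in LT-HSCs the range was, for the member median, -0.78 to 0.63, Oas2 -2.40 to 1.42, Mx1 -1.25 to 0.29, Cxcl10 -0.35 to 1.95, Rsad2 -0.72 to 2.73, Zbp1 -0.80 to 2.91 and Irf7 -2.03 to 2.03. In knockout against control in MPPs the range was, for the member median, -0.55 to 0.45, Oasl2 -1.72 to 0.44, Adar -1.22 to 0.060, Ifit1 -0.86 to 1.85, Ifi35 -0.25 to 1.29, Irf7 -1.96 to 1.30, Stat2 -0.041 to 0.96 and Mx1 -1.31 to 0.20. In knockout against control in myeloid progenitors the range was, for the member median, -0.27 to 0.47, Zbp1 -0.81 to 0.60, Irf1 -0.42 to 0.037, Oasl2 -0.88 to 0.75, Oas2 -0.56 to 1.64, Rsad2 -0.16 to 1.34, Irf7 -0.71 to 1.30, Stat2 -0.26 to 0.20 and Mx1 -0.35 to 0.47. In the average knockout difference the range was, for the member median, -0.22 to 0.24, Ifit1 -0.29 to 0.93, Rsad2 -0.15 to 1.00, Irf7 -0.76 to 0.60 and Stat2 -0.20 to 0.14. In LT-HSCs against MPPs the range was, for the count of members called, 0 to 3, Zbp1 -0.43 to 1.43, Usp18 -0.088 to 1.18, Irf7 -0.95 to 1.08 and Stat2 -0.34 to 0.15. In myeloid progenitors against MPPs the range was, for the count of members called, 0 to 1, Irf9 -0.29 to 0.26 and Mx1 -0.38 to 0.37. In LT-HSCs against myeloid progenitors Irf7 ranged from -0.031 to 2.01. The count of members higher ranged from 0 to 18 between the MPP pairs and, for myeloid progenitor pair 3, from 0 to 8 against pair 1 and from 0 to 19 against pair 2. The cause of these changes was not tested. With 2 or 3 arrays per group, the number of arrays limits the precision.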
